A study of Mus musculus with 6 samples.

Results

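This account describes 10 genes that encode the main enzymes removing superoxide and peroxides in heart muscle: the superoxide dismutases Sod1 and Sod2, catalase (Cat), the glutathione peroxidases Gpx1, Gpx3 and Gpx4, and the peroxiredoxins Prdx1, Prdx2, Prdx3 and Prdx5. They were chosen by name, by matching the gene identifiers of the deposited table to these mouse symbols. All 10 were found among the 20254 genes of the table, and all 10 passed the filter on low values that left 13823 genes for testing. RNA came from hearts of C57BL/6 mice: 3 were wild type (WT), and 3 carried the label Trdn-as knockout (KO), the deletion of a long non-coding RNA named as antisense to the triadin gene. In each genotype replicates 1 and 2 were 14 months old and replicate 3 was 5 months old, so each genotype holds 2 older hearts and 1 younger heart. The labels do not give the design of the deleted allele, the sex of the mice or whether littermates were used. Nothing in the labels says that the libraries came from separate litters, so p-values measure the spread between these hearts only. The Trdn-as transcript itself was not analysed here.

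Superoxide leaks from the respiratory chain and from oxidases and is turned into hydrogen peroxide by superoxide dismutases, Sod1 in the cytosol and intermembrane space and Sod2 in the mitochondrial matrix. Hydrogen peroxide is then removed by catalase, mostly in peroxisomes, by glutathione peroxidases, which draw electrons from glutathione, and by peroxiredoxins, which draw them from thioredoxin. The heart, which depends on dense mitochondria for its work, relies on Sod2 and Prdx3 in the matrix, and Gpx4 is known for reducing lipid peroxides in membranes and so holding back ferroptosis.

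Values are a normalized gene-level signal. The library totals ran from 19.8 to 23.5 in units of 1e6, and the depth implied by the smallest steps of the values ran from 19.0 to 23.0 in units of 1e6 reads. Mitochondrially encoded genes took 39.97 to 49.4% of the signal. All 12 cardiomyocyte markers, led by Myh6, passed the filter, and none was at 0 in all libraries. Y-linked genes summed to 54.9 in WT replicate 2 and 82.2 in KO replicate 2, and to 2496 or more in the other 4 libraries. Thus both 5-month hearts and replicate 1 read as male and replicate 2 as female, so sex and age move together in part. WT replicate 1 stood apart for erythroid markers, with a sum of 67603 against 3026 to 19693 elsewhere. KO replicate 1 had a lung, liver and kidney marker sum of 523, nearly all Scgb1a1, against 10.4 or less elsewhere, and KO replicate 3 a neutrophil sum of 231 against 62.2 to 86.8. Ucp1, a brown fat gene, was at 465 and 788 in KO replicates 1 and 2 and at 108 or less elsewhere. Trdn, which encodes triadin of the junctional sarcoplasmic reticulum, measured 5702, 5599.8 and 9104 in the WT hearts and 3429, 3459.7 and 5606 in the KO hearts. It lay lower in KO in each same-number pair (−0.71 log2, SE 0.10, limma adjusted p = 0.261).

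The glutathione peroxidases Gpx1, Gpx3 and Gpx4 are selenoproteins: an in-frame TGA codon, which elsewhere ends translation, is read as selenocysteine at the catalytic site. These stretches are shown because they mark the feature that sets these 3 genes apart from the other 7. Each is 51 bases of annotated transcript sequence (GENCODE M21, mm10) in the coding direction, with the TGA annotated as selenocysteine in capitals.
Gpx1: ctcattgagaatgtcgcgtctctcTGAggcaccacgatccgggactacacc
Gpx3: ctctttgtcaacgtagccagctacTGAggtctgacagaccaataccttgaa
Gpx4: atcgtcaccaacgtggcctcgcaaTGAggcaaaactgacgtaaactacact
The codon is number 47 of 201 in Gpx1 (chr9:108339451-108339453, plus strand), number 73 of 226 in Gpx3 (chr11:54907256-54907258, plus strand) and number 129 of 253 in the longest Gpx4 coding transcript (chr10:80054737-80054739, plus strand). In all 3 genes the TGA is followed directly by a GG. The annotation marks this feature in 24 genes, 22 of which are in the table.

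The promoters were searched on both strands for the core of the antioxidant response element, TGACNNNGC, bound by NRF2, and for a forkhead core, GTAAACA, bound by FOXO factors. RefSeq windows (GRCm38.p6) of 250 bases before to 50 bases after the start matched all 10 genes, with 13 windows because Gpx4 has 4. TGACNNNGC was present in the windows of 2 of the 10 genes, Sod1 and Prdx1, and in 12.4% of all 32851 windows. GTAAACA was in none of the 13 windows and in 3.65% of all windows, and no 2 matches overlapped. The 2 promoters with a match are shown with that of Cat, whose values departed from those of the other genes except Gpx3. Cat has no match, and neither have Sod2, Gpx1, Gpx3, Gpx4, Prdx2, Prdx3 and Prdx5. The bases lying before the annotated gene are printed in the direction of transcription, with the match in capitals.
Sod1: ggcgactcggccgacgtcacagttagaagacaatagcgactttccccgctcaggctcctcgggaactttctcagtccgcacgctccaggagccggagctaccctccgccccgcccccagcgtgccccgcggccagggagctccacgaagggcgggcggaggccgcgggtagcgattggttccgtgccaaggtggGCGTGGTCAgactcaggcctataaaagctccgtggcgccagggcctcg
Prdx1: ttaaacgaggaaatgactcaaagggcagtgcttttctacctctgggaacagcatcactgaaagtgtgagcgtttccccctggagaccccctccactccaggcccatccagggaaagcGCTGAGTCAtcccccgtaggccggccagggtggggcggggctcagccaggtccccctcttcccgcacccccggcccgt
Cat: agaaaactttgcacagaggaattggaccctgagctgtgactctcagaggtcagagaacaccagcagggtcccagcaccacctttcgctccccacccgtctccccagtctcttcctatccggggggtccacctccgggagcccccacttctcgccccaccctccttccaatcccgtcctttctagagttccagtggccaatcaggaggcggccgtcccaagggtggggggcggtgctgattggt
They lie at chr16:90220512-90220753 (plus strand, 242 bases), chr4:116685349-116685543 (plus strand, 195 bases) and chr2:103485161-103485403 (minus strand, 243 bases). Both matches are on the strand opposite to the gene, beginning 56 bases before the start in Sod1 and 133 bases before it in Prdx1. A match describes letters only, and factor binding was not measured.

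Per kilobase of the median annotated transcript, Sod2 (12183) and Gpx4 (10153) had the highest mean signal over the 6 libraries, followed by Gpx3 (6775), Prdx1 (6323), Prdx5 (4615), Prdx2 (3392), Prdx3 (2549), Cat (1756), Sod1 (1139) and Gpx1 (998). On this scale Sod2 ranged over the libraries from 10525 to 17286 and Gpx4 from 7748 to 15912, so these neighbours overlapped. Gpx3 (5313 to 8303) and Prdx1 (5144 to 8572) overlapped too, as did Sod1 (785 to 2082) and Gpx1 (734 to 1656). The order depends on which transcript is taken as the length, since the files do not say which isoform was read. Per kilobase of the longest transcript Gpx4 came first (7500), Sod2 dropped to the seventh place (1505), and Gpx1 (786) and Sod1 (661) remained the lowest pair. By signal not divided by length, Sod2 ranked 156 among all genes of the table and Gpx1, the lowest of the 10, ranked 2619.

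**Figure D1:**
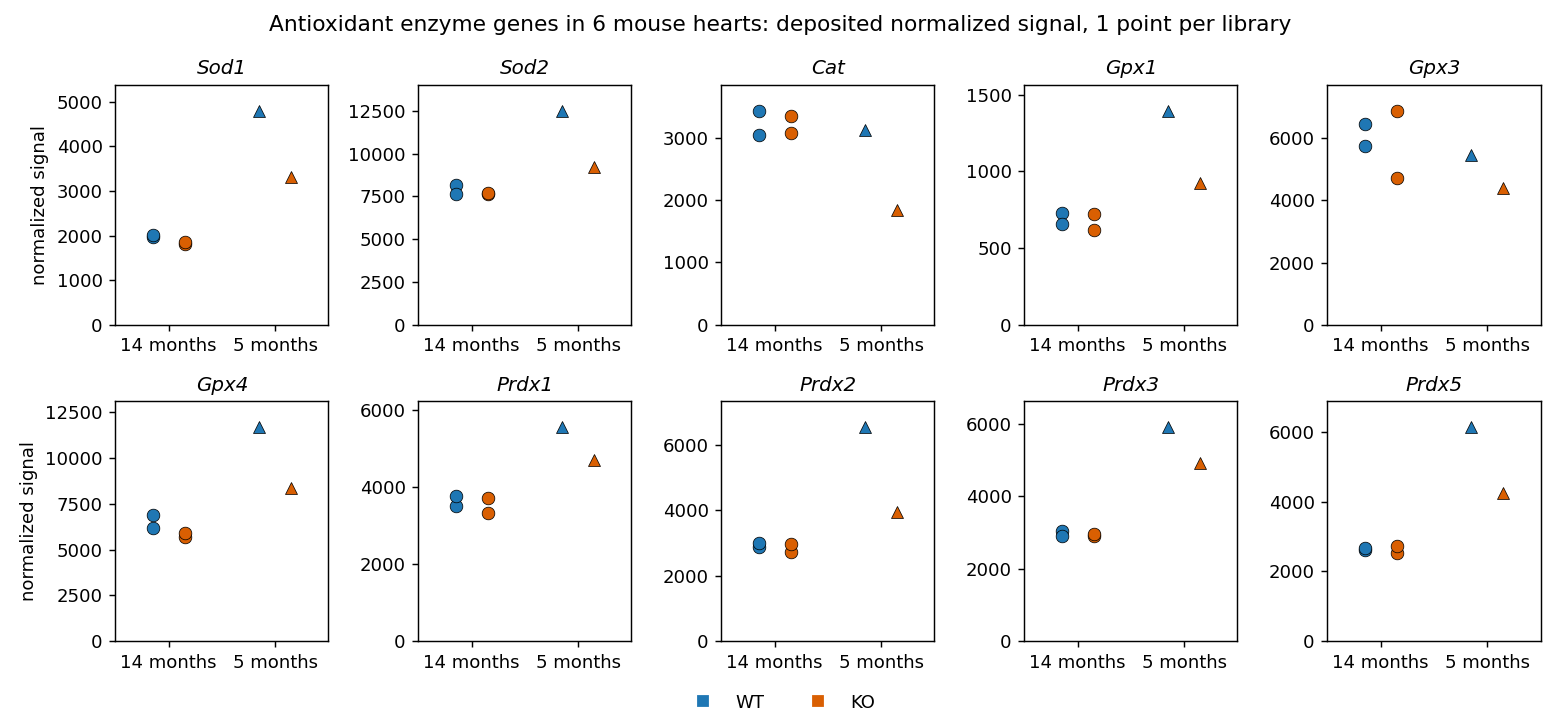
Deposited normalized signal of each of the 10 genes (vertical axes, from 0) in 6 mouse hearts by age (horizontal axes); each point is 1 library, blue for WT and orange for KO, circles at 14 months and triangles at 5 months. Both 5-month hearts lie above all 4 hearts of 14 months for 8 genes and not for Cat or Gpx3.

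Between 5 and 14 months, 8 of the 10 genes rose in the younger hearts and none fell. By limma on log2(signal + 1), with genotype as a covariate and adjusted p under 0.05, the 8 were Sod1, Sod2, Gpx1, Gpx4, Prdx1, Prdx2, Prdx3 and Prdx5. Of all genes tested 33.7% were called between the ages, 16.0% as higher at 5 months and 17.7% as lower. The median difference of the 10 genes was 0.71 log2, against −0.02 for all genes tested. For the same 8 genes the 2 younger hearts lay above all 4 older hearts, which was so for 25.0% of all genes (25.7% the other way). The comparison sets 2 libraries against 4, 1 of each genotype at 5 months. In bulk tissue, fewer cells of a type and less RNA per cell cannot be told apart.

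Sod1, the copper and zinc dismutase (chr16:90220754-90226329, plus strand), had the largest difference of the 10. It measured 1973 and 2008 in the 14-month WT hearts and 1810.5 and 1853 in the 14-month KO hearts, against 4801 in the WT and 3309 in the KO heart of 5 months. The older hearts were close together and both younger ones far above them. The fitted level at 5 months was 2.09 times that at 14 months (95% interval 1.70 to 2.57), a difference of 1.06 log2 (SE 0.13, limma adjusted p = 0.00113). Sod2, the manganese dismutase of the mitochondrial matrix (chr17:13006846-13040063, plus strand), had 8159 and 7620.4 in WT and 7669 and 7722 in KO at 14 months, and 12515 in WT and 9238 in KO at 5 months. The KO heart of 5 months lay only a little above the older hearts. The fitted difference was 0.46 log2 (SE 0.13, limma adjusted p = 0.0304). This call was the least secure of the 8: it held in 8 of 16 alternative settings. Under quantile normalization Sod2 was at 0.11 log2 (limma adjusted p = 0.370). With mitochondrially encoded genes removed and the libraries rescaled it was at 0.27 log2 (limma adjusted p = 0.0567). With 1 library left out, the limma adjusted p of Sod2 was 0.0900 without WT replicate 1, 0.0945 without WT replicate 2, 0.0719 without WT replicate 3, 0.0662 without KO replicate 1 and 0.0626 without KO replicate 2.

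Among the glutathione peroxidases the 2 intracellular enzymes rose and the secreted one did not pass the test. Gpx1, the cytosolic and mitochondrial enzyme (chr9:108338903-108340343, plus strand), had 727 and 660.0 in WT and 725 and 619 in KO at 14 months, and 1397 in WT and 925 in KO at 5 months. The groups did not overlap, and the difference was 0.74 log2 (SE 0.16, limma adjusted p = 0.00961). Without WT replicate 3 it was 0.47 log2 (limma adjusted p = 0.0503). Gpx4, the phospholipid hydroperoxide enzyme (chr10:80047166-80056439, plus strand), had 6196 and 6906 in WT and 5694 and 5908 in KO at 14 months, and 11695 in WT and 8375 in KO at 5 months. Again no older heart reached the younger ones (0.68 log2, SE 0.13, limma adjusted p = 0.00572). Gpx3, the extracellular enzyme found in plasma (chr11:54902453-54910377, plus strand), had 6469 and 5756 in WT and 6883 and 4732 in KO at 14 months, and 5455 in WT and 4405 in KO at 5 months. Its ages overlapped, and the difference was −0.27 log2 (SE 0.17, limma adjusted p = 0.252, 95% interval −0.65 to 0.12).

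The 4 chosen peroxiredoxins, Prdx1, Prdx2, Prdx3 and Prdx5, all rose, where 16.0% of all genes tested were called higher. This does not hold for the whole family. Of the peroxiredoxins not chosen, Prdx4 rose (0.81 log2, limma adjusted p = 0.0119). Prdx6 did not pass by age (0.04 log2, limma adjusted p = 0.876). Prdx1, a cytosolic enzyme (chr4:116685544-116700822, plus strand), had 3509 and 3763 in WT and 3336 and 3723 in KO at 14 months, and 5559 in WT and 4713 in KO at 5 months (0.52 log2, SE 0.12, limma adjusted p = 0.0136, and 0.0537 without WT replicate 1). Prdx2, also cytosolic and abundant in red cells (chr8:84969587-84974834, plus strand), had 2871 and 3001 in WT and 2719.7 and 2972 in KO at 14 months, and 6539 in WT and 3957 in KO at 5 months (0.82 log2, SE 0.16, limma adjusted p = 0.00756). Prdx3, the peroxiredoxin of the mitochondrial matrix (chr19:60864051-60874556, minus strand), had 3038 and 2904 in WT and 2902 and 2962 in KO at 14 months, and 5899 in WT and 4899 in KO at 5 months (0.87 log2, SE 0.12, limma adjusted p = 0.00163). Prdx5, found in mitochondria, peroxisomes and cytosol (chr19:6906697-6910106, minus strand), had 2611 and 2657 in WT and 2522 and 2731 in KO at 14 months, and 6132 in WT and 4251 in KO at 5 months (0.96 log2, SE 0.14, limma adjusted p = 0.00242). For each of the 4, the older hearts lay within a narrow band, and the WT heart of 5 months was the highest library.

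Catalase did not pass the test. Cat (chr2:103453849-103485160, minus strand) had 3042 and 3434 in WT and 3345 and 3081 in KO at 14 months, and 3121 in WT and 1846 in KO at 5 months. Only the younger KO heart lay outside the range of the older hearts, below it. The age difference was −0.42 log2 (SE 0.18, limma adjusted p = 0.0979). Without WT replicate 3, which leaves the KO heart alone at 5 months and assumes that it varies like the others, it was −0.80 log2 (limma adjusted p = 0.00381), and without KO replicate 3 it was −0.05 log2 (limma adjusted p = 0.776), so which younger heart is read decides the value.

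**Figure D2:**
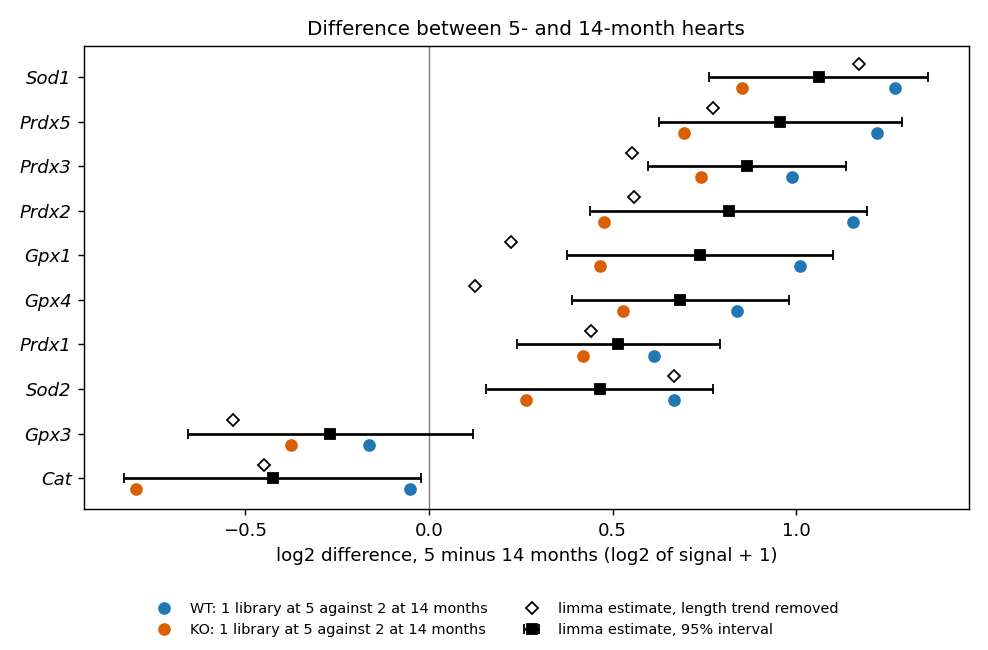
Log2 difference between 5 and 14 months (horizontal axis, log2 of signal + 1) for each gene; black squares are limma estimates over 6 libraries with 95% intervals, coloured points are each genotype alone (1 library against 2), and open diamonds are estimates after the trend with transcript length was removed. The estimates of 8 genes lie between 0.46 and 1.06, and those of Gpx3 and Cat lie below 0.

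Several properties of the libraries moved with age, and their part in these differences was not tested. Genes with short transcripts were higher at 5 months. With protein-coding genes ranked by their longest transcript, the 3347 shortest (204 to 2300 bases) had a median age difference of 0.29 log2, with 31.1% called higher and 7.56% lower. The 3346 longest had a median of −0.21 log2, with 7.74% called higher and 25.4% lower. The shortest set holds 7 of the 10 genes. With the length trend removed, a setting added after the data were seen, 6 of the 10 were called higher (Sod1, Sod2, Prdx1, Prdx2, Prdx3 and Prdx5). Gpx4 was then 0.13 log2 (limma adjusted p = 0.355) and Gpx1 0.22 log2 (limma adjusted p = 0.188), and Gpx3 was called lower (−0.53 log2, limma adjusted p = 0.0328). Sod1 was 1.17 log2 in that fit. Sod1, Prdx2, Prdx3 and Prdx5 were called higher in all 16 alternative settings.

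Cell type markers and scaling moved as well. Cardiomyocyte markers summed to 794733 to 876412 at 14 months, to 907597 in the younger KO heart and to 1491390 in the younger WT heart, and 6 of 12 rose and 1 fell by limma. Of 12 endothelial markers 6 fell at 5 months and 1 rose, of 12 fibroblast markers 6 fell and 1 rose, and of 10 smooth muscle and pericyte markers 4 fell and 0 rose. The fibroblast sums were 22296 to 25514 at 14 months and 15742 and 23435 at 5 months, and the endothelial sums 20917 to 26442 and 15357 and 17197. Adipocyte sums overlapped between the ages (14221 to 18256 against 17527 and 18479), with Fabp4 the most abundant gene in them. Of 14 adipocyte markers tested 1 rose and 1 fell. Single markers departed from the sum: Plin1 was at 193 and 330 in the 14-month KO hearts and 33.0 in the 5-month KO heart. In the WT hearts Plin1 was at 56.5, 72.6 and 54.4. With the mitochondrially encoded genes removed and the libraries rescaled, the median age difference of all genes moved from −0.02 to −0.22 log2 and that of the 10 genes was 0.51 log2, with 7 called higher and Cat called lower (−0.62 log2, limma adjusted p = 0.014). Under quantile normalization 6 were called higher, while Cat and Gpx3 were called lower. With replicate 2 of both genotypes left out, so that all hearts read as male, 6 of 10 were called higher and none lower, Sod2 and Prdx1 being lost (limma adjusted p = 0.242 and 0.0747).

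The step between the ages was larger in WT than in KO for the 8 genes that rose. In WT the level at 5 months was 2.41 times the 14-month level for Sod1, 2.33 times for Prdx5, 2.23 times for Prdx2, 2.01 times for Gpx1 and 1.99 times for Prdx3, with 1 library against 2. In KO the same ratios were 1.81, 1.62, 1.39, 1.38 and 1.67. Cat was at 0.964 of its older level in WT and at 0.575 in KO. The test of this difference, the interaction of genotype and age, called 0 of the 10 genes, and 2.08% of all genes (287 of 13823). Of the 10, 6 had an unadjusted p under 0.05 in that test, as did 23.2% of all genes. The lowest adjusted p-values were those of Prdx2 (−0.68 log2, SE 0.15, limma adjusted p = 0.0698) and Cat (−0.75 log2, SE 0.17, limma adjusted p = 0.0711). All 10 interaction estimates were below 0 in this fit, as were 53.4% of those of all genes, though those of Gpx3, Gpx4, Prdx1 and Prdx3 changed sign under other settings, quantile normalization among them. With 1 heart per genotype at 5 months, this rests on the 2 libraries of replicate 3. The spread behind the SE and p-values of this test came from the 14-month hearts alone. The test therefore assumes that hearts of 5 months vary like those of 14 months.

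Between KO and WT none of the 10 genes passed the test. limma with age as a covariate called 0% of genes, 0 of 13823, the smallest adjusted p being 0.226, and voom weights gave 0 as well. At an unadjusted p under 0.05 there were 841 genes (6.08%) and 0 of the 10. Adjusted p-values of the 10 genes ran from 0.745 to 0.804. All 10 estimates lay below 0, from −0.28 to −0.10 log2 with a median of −0.20, and so did 53.9% of all genes, but Prdx1 moved to 0.00 log2 under quantile normalization and Prdx3 to about 0.00 log2 under 3 settings. WT and KO values overlapped for all 10 genes. Over all genes, KO lay wholly below WT in 2.89% and wholly above it in 2.88%.

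The largest genotype estimate was that of Gpx4, which was lower in KO in each same-number pair: 5694 against 6196, 5908 against 6906, and 8375 against 11695 (−0.28 log2, SE 0.12, 95% interval −0.55 to 0.00, limma adjusted p = 0.745). Sod1 followed the same order, with the KO signal at 91.8, 92.3 and 68.9% of that in the same-number WT heart and a difference of −0.26 log2 (SE 0.12). Prdx2 stood at 94.7, 99.0 and 60.5% of WT, a difference of −0.27 log2 (SE 0.15). In these genes the gap was mainly that of the 5-month hearts. Cat was at 110.0, 89.7 and 59.2% of WT, changing direction between the pairs (−0.26 log2, SE 0.17). Gpx3 was at 106.4, 82.2 and 80.7% (−0.17 log2, SE 0.16) and Gpx1 at 99.7, 93.8 and 66.2% (−0.23 log2, SE 0.15). The mitochondrial enzymes had the ratios 94.0, 101.3 and 73.8% for Sod2, 95.5, 102.0 and 83.0% for Prdx3 and 96.6, 102.8 and 69.3% for Prdx5. Their 95% intervals were −0.46 to 0.12 log2 for Sod2, −0.36 to 0.15 log2 for Prdx3 and −0.49 to 0.13 log2 for Prdx5. Prdx1, at 95.1, 98.9 and 84.8% of WT, differed by −0.11 log2 (SE 0.11). KO was below WT in each same-number pair for 5 of the 10 genes, Sod1, Gpx1, Gpx4, Prdx1 and Prdx2, and for 14.6% of all genes.

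At 14 months the genotypes lay close together, and at 5 months the single KO heart was below the single WT heart in all 10 genes. The median difference over the 10 was −0.07 log2 in replicate 1 (8 of 10 below 0), −0.05 log2 in replicate 2 (7 of 10) and −0.51 log2 in replicate 3 (10 of 10). Over all genes the replicate 3 median was −0.06 log2 with 54.1% below 0. Fitted on the 14-month hearts alone, the differences ran from −0.17 log2 for Gpx4 (limma adjusted p = 0.839) to −0.01 log2 for Prdx5 (limma adjusted p = 0.998). The 10 genes together summed to 38595, 38709 and 63112 in the WT hearts and 37606, 36304 and 45918 in the KO hearts. As a share of the non-mitochondrial signal this was 0.341, 0.350 and 0.447% for WT and 0.345, 0.323 and 0.397% for KO. On that share, too, the younger hearts were the highest 2.

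**Figure D3:**
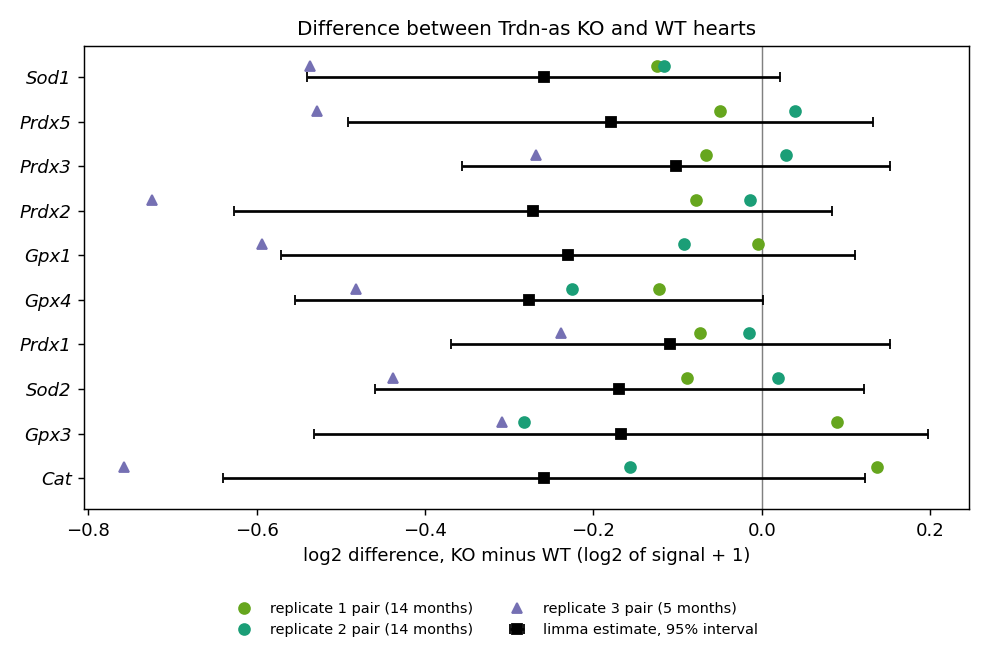
Log2 difference between KO and WT (horizontal axis, log2 of signal + 1) for each gene; black squares are limma estimates over 6 libraries with 95% intervals, circles are same-number pairs at 14 months and triangles the pair at 5 months. The 5-month pair lies at −0.24 or below for every gene; all estimates are below 0 in this fit, but Prdx1 and Prdx3 reach 0.00 under other scalings and no gene passed the test.

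No marker list had a gene called between the genotypes, but same-number pairs differed in several. The 14 adipocyte markers tested had median KO minus WT differences of 0.89 and 1.22 log2 in the 14-month pairs. In the replicate 3 pair their median was −0.85 log2. The erythroid medians were −2.82 log2 in replicate 1, 1.52 log2 in replicate 2 and −1.71 log2 in replicate 3. All 12 cardiomyocyte markers were fitted below WT, with a median of −0.27 log2 and of −0.71 log2 in the replicate 3 pair, and 0 of 12 were called. All 43 nuclear genes of oxidative phosphorylation were also fitted below WT (median −0.20 log2, −0.51 log2 in the replicate 3 pair, 0 called). Over the 3347 protein-coding genes with the shortest transcripts the median KO difference was −0.13 log2, and over the 3346 longest it was 0.06 log2. At 5 months the sums were also lower in KO than in WT for fibroblast (15742 against 23435), smooth muscle and pericyte (15518 against 20666), macrophage (4369 against 5916) and endothelial markers (15357 against 17197). The part of these in the differences of the 10 genes was not tested.

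The 10 genes were compared by shape over the 6 libraries, as the root mean square distance of log2 values after removal of each gene's mean. Sod1 and Prdx5 were each other's nearest among the 10 (distance 0.072 log2), and so were Sod2 and Prdx1 (0.095), and Cat and Gpx3 (0.219). Cat was the farthest of the 10 from each of the other genes except Gpx3, for which it was the nearest and Sod1 the farthest (0.654). The distance between Cat and Sod1, 0.707 log2, was the widest. Over all genes tested, the nearest to Sod1 was Eef1b2 (0.032), an elongation factor subunit, the nearest to Prdx3 was Vdac3 (0.023), an outer mitochondrial membrane channel, and the nearest to Prdx2 was Atp5o (0.031), an ATP synthase subunit. The nearest to Gpx1 was Rpl24 (0.048), a ribosomal protein, and to Gpx4 Atp6v1e1 (0.032), a subunit of the vacuolar proton pump. The others were Chac2 for Sod2 (0.013), Dock11 for Cat (0.040), Ppp1r1b for Gpx3 (0.055), Klhl22 for Prdx1 (0.020) and Morf4l1 for Prdx5 (0.038). With 6 libraries in 2 ages, many genes share such a shape: 1134 genes were nearer to Cat than Gpx3 was, and 37 were nearer to Sod1 than Prdx5 was.

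Some of the 10 genes share transcript sequence with other annotated genes, which limits how reads could be assigned. Of the 31-base words in the transcripts of Gpx4, 38.9% also occur in other genes, nearly all in the pseudogene Gpx4-ps2, which was listed at 3.99 or less. For Sod2 the share was 26.7%, with 20.1% in Rps6ka2, a kinase whose signal was 457 to 1268. Prdx5 shared 16.9%, all with Trmt112, which overlaps it on the opposite strand over 409 exon bases and had values of 150 to 283. Prdx2 shared 16.5% and overlaps Rnaseh2a and Junb on the opposite strand, over 177 and 173 exon bases. Prdx1 shared 15.4%, Sod1 5.41%, and Cat, Gpx1 and Prdx3 shared none. Whether the counting used strand is not given in the sources used here, so reads of these overlaps cannot be told apart.

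Outside the 10, 170 genes from 10 lists were tested. The lists hold antioxidant enzymes with their partners and regulators, but also oxidant sources, peroxisome genes and nuclear oxidative phosphorylation genes. By age 70 rose and 15 fell at 5 months, with a median of 0.35 log2. Of the 70, 33 were oxidative phosphorylation genes (33 of 43 tested). Over all genes tested 16.0% were called higher and 17.7% lower. Between KO and WT 0 were called. The list of other dismutases and peroxidases had 4 of 8 higher and 2 lower. It also holds Ccs, which is among those called higher, and Pxdc1, which was not called. Neither of them is a dismutase or peroxidase. The 6 calls became 3 with replicate 2 of both genotypes left out and 2 with the length trend removed. Ccs, the copper chaperone that loads Sod1, rose (1.07 log2, SE 0.19, limma adjusted p = 0.00513), with 105, 145, 128 and 126 in the 14-month hearts and 297 and 234 at 5 months. Sod3, the extracellular dismutase, fell from 830.3, 709, 1066 and 605 in the 14-month hearts to 279 and 186 (−1.78 log2, SE 0.24, limma adjusted p = 0.00173), unlike the 2 intracellular dismutases. Prdx6, the only 1-cysteine peroxiredoxin, had 2432, 2571 and 3442 in WT and 2436, 2535 and 1915 in KO. It did not pass by age (0.04 log2, limma adjusted p = 0.876), and its younger hearts lay on both sides of the older ones.

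The lists of partners of these enzymes were mixed, against 16.0% called higher and 17.7% lower over all genes tested. The reductases Txnrd1 (0.05 log2), Txnrd2 (0.49 log2) and Gsr (0.05 log2) did not pass by age. In the thioredoxin and glutaredoxin system 4 of 16 rose and 1 fell: Txn1, the cytosolic thioredoxin that reduces peroxiredoxins, rose by 0.83 log2, Sesn1 by 1.19 log2, while Sesn2 fell by 0.76 log2. In glutathione supply and transfer 6 of 16 rose and 1 fell, with Mgst3, a membrane glutathione transferase, at 0.90 log2 and Gstm1 at −0.85 log2. Selenoprotein synthesis and other selenoproteins had 7 of 17 higher and 1 lower. There Pstk, the kinase that acts on the selenocysteine transfer RNA, rose by 1.06 log2 and Trnau1ap by 1.15 log2, while Selenon fell by 0.99 log2. In NADPH supply 1 of 11 rose (Idh1, 0.92 log2) and 1 fell (Aldh1l1, −1.18 log2), which is no larger a share than that of all genes. Without KO replicate 3 the list had 4 calls, and without WT replicate 2 or KO replicate 2 it had 1.

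The regulators were mixed: Nfe2l2 and Foxo1 fell at 5 months and Foxo4 rose. For the counts that follow, 16.0% of all genes tested were called higher and 17.7% lower. Of 20 genes of NRF2 and its targets 1 rose, the ferritin light chain Ftl1 (0.52 log2, and −0.051 log2 with the length trend removed), and 1 fell, Nfe2l2, which encodes NRF2 itself. This count of 2 became 6 without KO replicate 3, 4 without WT replicate 3, and 1 without KO replicate 1 or without KO replicate 2. Nfe2l2 had 1741 and 1365 in WT and 1350.3 and 1509.9 in KO at 14 months, and 1149 in WT and 663 in KO at 5 months, with both younger hearts below the older ones (−0.76 log2, SE 0.18, limma adjusted p = 0.0148). The list of FOXO factors and targets includes Sod2, Cat and Prdx3. Among its 9 other genes 4 rose and 2 fell. The 8 calls of the whole list became 5 without KO replicate 1 or without KO replicate 2. They became 4 with replicate 2 of both genotypes left out. Foxo4 rose by 0.54 log2 (SE 0.12, limma adjusted p = 0.0135), and Foxo3 was at −0.29 log2 (limma adjusted p = 0.128). Foxo1, a forkhead factor, fell by 1.35 log2, with 545, 566, 646 and 546 in the 14-month hearts and 276 and 183 at 5 months (SE 0.18, limma adjusted p = 0.0015).

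Sources and sites of peroxide were described in the same way. Among 12 tested oxidant sources 2 rose and 1 fell, the share that rose being near the 16.0% of all genes, with 1 call in all without WT replicate 1 or without KO replicate 1: Romo1, a small mitochondrial protein that modulates reactive oxygen species, was at 1.18 log2, Cyba, the p22phox subunit of NADPH oxidase, at 0.55 log2 (−0.18 log2 with the length trend removed), and the endothelial nitric oxide synthase Nos3 at −0.50 log2. Of 28 peroxisome genes 9 rose and 4 fell (13 calls, but 6 without WT replicate 1 and 8 without KO replicate 1 or without KO replicate 2), Pex2 (1.10 log2) and Scp2 (0.80 log2) upward and Amacr (−0.68 log2) downward. The nuclear genes of oxidative phosphorylation, whose complexes I and III release superoxide, had the most calls: 33 of 43 rose and 1 fell, with a median of 1.00 log2. Cox8b reached 2.43 log2 and Cox7a1 2.34 log2, while Cyc1 fell by 0.59 log2. Against this list the 10 genes had a similar share of calls and a smaller median (0.71 log2), and the difference between the lists was not tested.

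**Figure D4:**
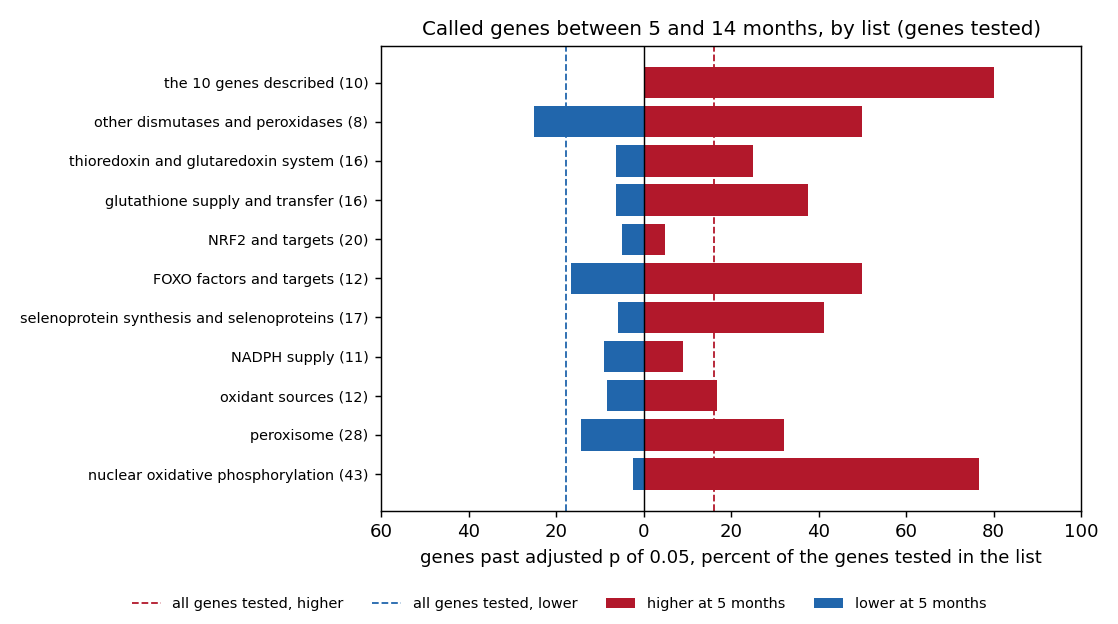
Percent of the tested genes of each list (horizontal axis; number tested in brackets) that passed limma adjusted p under 0.05 between 5 and 14 months, red for higher and blue for lower at 5 months; dashed lines are the percentages over all genes tested. The 10 enzyme genes (8 of 10) and the nuclear oxidative phosphorylation genes (33 of 43) have the longest red bars, against 16.0% for all genes.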

How the data were processed

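The unit is a normalized gene-level signal, as deposited. The submitters' processing notes name Salmon 1.5.2 and mm10; the normalization step is not given in the sources used here. Only 6.37 to 9.75% of low values were whole multiples of 1 step (tolerance 0.01), so the planned count test was not used. After 108 broken lines were left out, 20254 gene rows remained. Of these 20146 matched GENCODE M21, and the 108 unmatched rows were kept under their gene identifiers. No libraries were duplicates (5.58% of genes or fewer within 1% of each other).

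limma 3.58.1 (trend and robust options; R 4.3.3) was fitted on log2(signal + 1) over the 13823 genes at 10 or more in at least 3 libraries, with Benjamini-Hochberg adjustment over all of them and a threshold of 0.05. The fits were KO against WT with age, 5 against 14 months with genotype, and their interaction. Only the fit of KO against WT was run on simulated data, and the fits of age and of the interaction were not. Differences are on the log2(signal + 1) scale and SE is the moderated standard error. The 10 genes and the gene lists were chosen with earlier results of these data known. From each list the called genes of largest difference, up to 3 per direction, and the most abundant gene could be named. Foxo3, Foxo4, Txnrd1, Txnrd2, Gsr, Pxdc1 and the markers Ucp1 and Plin1 were named outside this rule. Nnt was left out of the lists because 2 gene records carry its symbol. Titles number the replicates, and the labels state no pairing, so the replicate block was an alternative; it changed no call. Deviations of same-number libraries correlated at 0.390, 0.383 and 0.617, cross pairs at 14 months at 0.369 and 0.382, and same-number libraries at 0.0147 once the 14-month means were removed. Replicate number also carries age and sex. Other alternatives were pseudocounts, no filter, other scalings, limma-voom, leaving out libraries and, added later, removal of the length trend.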

Additional observations from a re-analysis of the deposited data

Results flagged for a closer look

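None of the 10 genes met a criterion for a closer look; 11 genes of the wider lists did, among 59 checked. The genotype difference at 5 months minus that at 14 months passed the interaction test in limma for 7 of them, with 1 library per genotype at 5 months. Prdx6 was at −0.84 log2, with KO at 1915 and WT at 3442 at 5 months. The glutathione transferases Gstm1 and Gstm2 were at −1.24 and −1.13 log2. Gstm1 measured 3410.3, 3517 and 2957 in the WT hearts, and 3817, 3667 and 1354 in the KO hearts. Idh2, the mitochondrial isocitrate dehydrogenase that supplies NADPH, was at −1.12 log2, with WT libraries at 15874, 17019 and 30300.5 and KO libraries at 15454, 17745 and 13997. The ATP synthase subunit genes Atp5a1 and Atp5g3 were at −0.86 and −0.90 log2 and the complex I gene Ndufs7 at −0.79 log2. In all 7 the 5-month KO heart lay below the 5-month WT heart. The interaction test took its spread from the 14-month hearts alone, so spread between 5-month hearts was not measured. Each of the 7 lost its call under several alternatives, without WT replicate 1 and without WT replicate 2 among them.

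In 4 genes the gap between 1 of the 4 hearts of 14 months and the nearest other was a large part of the range of these 4 hearts. In WT replicate 2, Ftl1 was highest (4646 against 3302 to 3468) and so was Txnip, an inhibitor of thioredoxin (12526 against 6659 to 7416). In WT replicate 1 the gaps were small in size: Gstm5 was lowest (419.5 against 461 to 469.6) and Phyh highest (7388 against 6986 to 7038). Chance flags about 1 in 20 groups, and 59 genes were checked.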

How the results depend on the processing

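For the 10 genes by age, 140 of 160 values under alternatives kept their direction and side of the threshold, 14 lost the call and 6 gained one; the number called was 6 to 9. Between KO and WT none of the 10 was called under any alternative, the replicate block among them (0 genes, 0 of the 10). KO against WT called 0 to 5 genes when 1 library was left out, 1 without WT replicate 2, 5 without WT replicate 3 and 5 without KO replicate 3. By age 4663 genes were called, and 2979 with replicate 2 of both genotypes left out. The interaction called 287 genes; this became 4 with no filter, 12 under quantile normalization, 748 with mitochondrially encoded genes removed, 559 with limma-voom, 119 with the length trend removed, and 14 to 247 with 1 library left out (18 without WT replicate 1, 14 without WT replicate 2, 223 without KO replicate 1, 247 without KO replicate 2). In this test the median of all genes moved from −0.05 to 0.22 log2 with mitochondrially encoded genes removed and to 0.24 log2 with limma-voom. The KO difference changed sign for Prdx1 under quantile normalization (0.0034 log2) and for Prdx3 under quantile normalization (0.000915 log2), with mitochondrially encoded genes removed (0.0042 log2) and with the length trend removed (0.000695 log2). The interaction of Gpx3 changed sign under quantile normalization (0.040 log2), with mitochondrially encoded genes removed (0.061), with limma-voom (0.081) and with the length trend removed (0.030), and ran from −0.48 to 0.058 with 1 library left out, above 0 only without KO replicate 1. That of Gpx4 changed sign under quantile normalization (0.068) and with the length trend removed (0.037). That of Prdx1 did so under quantile normalization (0.079), with mitochondrially encoded genes removed (0.079) and with limma-voom (0.0996). Under the 4 settings named for Gpx3, that of Prdx3 was 0.019, 0.024, 0.044 and 0.0098. With the length trend removed the age difference was −0.18 log2 for Cyba and −0.051 log2 for Ftl1. For the named genes of the lists, 512 values by age kept their call, 78 lost it and 2 changed sign, and 37 interaction values kept it and 47 lost it. The causes were not tested. Read counts per gene are not known, so no counting error is given, and 2 libraries at 5 months limit every statement on age.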

Other observations

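Nnt, the mitochondrial transhydrogenase that supplies NADPH for the reduction of glutathione and thioredoxin and a known point of difference between C57BL/6 substrains, is carried by 2 overlapping records on chromosome 13; it was singled out after its values were seen. The record with 5 transcripts measured 4039, 3789 and 2109.8 in the WT hearts and 2793, 3885 and 2242 in the KO hearts. The other, with 1 transcript, measured 8770.0, 9390.2 and 9435 in the WT hearts and 9031, 10578 and 3818 in the KO hearts. The 5-month KO heart was the lowest library for the second record, and the WT heart of 5 months the lowest for the first. How reads were split between the 2 records is not given in the sources used here.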
